A study of Mus musculus with 6 samples.

Results

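The RasGRP exchange factors and the kinases that pass their signal on to ERK were followed as 8 genes, chosen by symbol: Rasgrp1, Rasgrp2 and Rasgrp3, the kinases Braf and Map3k1, the kinases Map2k1 and Map2k2, and Mapk3. All 8 were found among the 37620 genes listed, and all 8 were among the 16127 genes tested. RNA was sequenced from the pre-limbic cortex (PLc) of male C57Bl/6 mice aged 9 weeks, with 3 mice in each group and 1 library per mouse. Saline mice 1, 6 and 10 received saline vehicle i.p., and ketamine mice 3, 5 and 9 received ketamine i.p. at 30 mg/kg. Both were injected once a day for 5 days, and the tissue was frozen 2 days after the last day of injections. The comparison addresses whether sub-chronic ketamine alters, in the PLc, signalling genes that act downstream of the NMDA receptor and of BDNF. Nothing in the labels ties a mouse to a litter or a batch.

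Ras proteins are membrane-bound switches that are on with GTP and off with GDP. RasGRP proteins load Ras or its relative Rap with GTP, in response to diacylglycerol, calcium or both, depending on the member. Active Ras recruits Raf kinases such as Braf, which phosphorylate the MEK kinases Map2k1 and Map2k2, and these activate ERK kinases such as Mapk3 (ERK1), which in neurons couple receptor activity to transcription and plasticity. Map3k1 is a further kinase at the Raf tier, best known for feeding the JNK branch. Rasgrp1 is abundant in forebrain neurons, and Rasgrp2, also called CalDAG-GEFI and active mainly on Rap1, is known from striatum and from platelets.

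The values are normalized counts, that is, reads per gene after scaling each library by its size factor. Of the 8 genes, 3 were higher in every ketamine mouse than in any saline mouse (Rasgrp2, Map3k1 and Mapk3) and 1 was lower in every ketamine mouse (Rasgrp1). Among all genes tested, 5.69% were higher in every ketamine mouse, 4.66% were lower, and 10.3% did not overlap in either direction. None of the 8 passed the main test, which compared log2(normalized count + 1) with limma and called 0% of all genes at an adjusted p under 0.05. At an unadjusted p under 0.05 limma found 5.81% of all genes, and 3 of the 8. Higher were 3.44% of all genes and 2 of the 8, Rasgrp2 and Map3k1, and lower were 2.37% of all genes and 1 of the 8, Rasgrp1. DESeq2, run on the reads recovered from the table, called 1.13% of all genes, with 0.899% of all genes called higher, and 2 of the 8, Rasgrp2 and Map3k1, both higher. edgeR's quasi-likelihood test on the same reads called 0 genes, with an unadjusted p under 0.05 for 1007 of all genes and 4 of the 8.

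The promoters of 4 of the genes are shown here because the results turn on Rasgrp2, Map3k1 and Rasgrp1, and because Braf carries a motif that few promoters hold. They come from RefSeq on GRCm38.p6, where 7 of the 8 genes have an entry, and each runs from 250 bases before a start site to 50 bases after it, written 5′ to 3′ along the gene. Capitals mark GC boxes (GGGCGG on either strand) and, in Braf, CRE sites (TGACGTCA), with overlapping matches each counted. Rasgrp2 lies at chr19:6399625-6399924 on the plus strand for the first of its start sites, Map3k1 at chr13:111808944-111809243 on the minus strand, Rasgrp1 at chr2:117342828-117343127 on the minus strand and Braf at chr6:39725414-39725713 on the minus strand.
Rasgrp2: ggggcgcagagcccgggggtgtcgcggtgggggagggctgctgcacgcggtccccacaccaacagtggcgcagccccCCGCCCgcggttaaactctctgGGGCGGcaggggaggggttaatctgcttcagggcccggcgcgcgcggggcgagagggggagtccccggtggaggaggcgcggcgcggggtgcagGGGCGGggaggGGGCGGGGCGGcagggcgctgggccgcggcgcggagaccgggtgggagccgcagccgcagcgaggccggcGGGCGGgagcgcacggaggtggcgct
Map3k1: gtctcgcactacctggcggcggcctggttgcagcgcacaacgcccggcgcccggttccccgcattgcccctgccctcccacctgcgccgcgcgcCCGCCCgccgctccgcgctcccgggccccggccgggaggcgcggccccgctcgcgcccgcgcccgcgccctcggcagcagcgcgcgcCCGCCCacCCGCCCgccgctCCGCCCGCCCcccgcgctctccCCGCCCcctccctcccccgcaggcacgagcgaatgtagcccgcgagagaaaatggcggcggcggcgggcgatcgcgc
Rasgrp1: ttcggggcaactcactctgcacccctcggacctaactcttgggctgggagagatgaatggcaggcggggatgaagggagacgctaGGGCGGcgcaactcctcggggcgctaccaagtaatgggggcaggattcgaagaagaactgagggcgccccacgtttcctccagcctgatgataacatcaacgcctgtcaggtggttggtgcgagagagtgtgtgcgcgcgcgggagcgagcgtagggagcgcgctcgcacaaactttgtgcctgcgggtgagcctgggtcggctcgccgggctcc
Braf: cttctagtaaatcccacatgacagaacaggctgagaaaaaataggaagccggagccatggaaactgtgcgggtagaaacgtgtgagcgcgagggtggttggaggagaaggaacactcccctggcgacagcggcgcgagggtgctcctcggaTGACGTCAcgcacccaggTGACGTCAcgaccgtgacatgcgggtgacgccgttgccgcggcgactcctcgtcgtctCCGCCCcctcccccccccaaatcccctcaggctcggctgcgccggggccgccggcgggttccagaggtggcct

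Both Rasgrp2 and Map3k1 hold 6 GC boxes in this window, and 2.71% of the 32851 promoters in the table hold 5 or more. Their GC content is 80.0% for Rasgrp2 and 82.7% for Map3k1, against a median of 52.7% over all promoters. Rasgrp1 has 1 GC box and a GC content of 63.7%. At least 1 GC box is present in 35.7% of all promoters. Braf has 2 CRE sites, at 99 and 81 bases before its start site, and 0.0396% of promoters have 2 or more, while 1.79% have at least 1. Map2k1 has 4 GC boxes, Map2k2 has 2, and the promoter of the other start site of Rasgrp2 has 2, whereas neither promoter of Rasgrp3 has any. An E-box (CACGTG), an AP-1 site (TGACTCA) or an EGR site (GCGTGGGCG), searched on both strands, was found in none of these promoters, against 7.15%, 5.2% and 0.612% of all promoters. These matches describe the letters of the window only.

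Beside the cascade, 3 features of the libraries need to be known. The reads recovered were between 26273436 and 32643726 per library. Markers of striatal projection neurons were, in sum, higher in ketamine mice 3 and 5 than in any other mouse. The 24 genes of that list summed to between 19048 and 21427 normalized counts in the saline mice, against 107429, 58374 and 18415 in ketamine mice 3, 5 and 9, although 6 of the 24 taken alone were above every saline mouse in mouse 9 as well. Ketamine mouse 9 was low in genes with long transcripts, with a median log2 difference from the saline mean of −0.68 for transcripts of 8 kb or more, −0.31 for those of 4 to 8 kb and 0.26 for those under 2 kb. For the longest and the shortest of these classes the medians were 0.13 and −0.10 in ketamine mouse 3, and 0.23 and −0.16 in ketamine mouse 5. Where a value below is "centred for length", each library was first set to the median of its genes of like transcript length, in 30 bins of genes. In tissue RNA, fewer cells of a type and less RNA per cell cannot be told apart.

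Rasgrp1 (ENSMUSG00000027347), which had the highest level per kb among the 3 RasGRP genes followed here, lies on the minus strand of mm9 at chr2:117105729-117168737. It had 18805, 16638 and 15896 normalized counts in saline mice 1, 6 and 10, against 13277, 14276 and 9816 in ketamine mice 3, 5 and 9. Every ketamine mouse was below every saline mouse, and mouse 9 was the lowest. The mean was 17113 ± 1511 in the saline mice and 12456 ± 2341 in the ketamine mice (mean ± SD, n = 3). The log2 fold change was −0.47 (limma, SE 0.182, 95% interval −0.90 to −0.04, unadjusted p = 0.0347, adjusted p = 0.797). The exact permutation test gave p = 0.1, the smallest it can give with 3 mice against 3. Without mouse 9 the log2 fold change was −0.31. Centred for length it was −0.42 with an SE of 0.0927 (limma, unadjusted p = 0.00308, adjusted p = 0.339), and the groups still did not overlap. The transcript of Rasgrp1 has 5229 bases, in the range where mouse 9 was low. Without ketamine mice 3 and 5, which leaves ketamine mouse 9 alone against the saline mice, the log2 fold change was −0.80.

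Markers of cortical excitatory neurons were, in sum, also lower in every ketamine mouse. The 8 genes of that list summed to 234066, 225312 and 182526 normalized counts in saline mice 1, 6 and 10, against 105144, 177037 and 141512 in ketamine mice 3, 5 and 9. Of the 8, 3 were lower in every ketamine mouse taken alone, and none was at 0 in any mouse. Ketamine mouse 3 was lowest for these markers and ketamine mouse 9 for Rasgrp1. The part of this list in the Rasgrp1 difference was not tested.

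Rasgrp2 (ENSMUSG00000032946) lies on the plus strand of mm9 at chr19:6399340-6415216. It had 345, 405 and 529 normalized counts in saline mice 1, 6 and 10, against 1726, 1326 and 751 in ketamine mice 3, 5 and 9. All 3 ketamine mice were above all 3 saline mice, with the smallest gap between ketamine mouse 9 and saline mouse 10. The fold of the means was 2.97, and the log2 fold change was 1.51 (limma, SE 0.317, 95% interval 0.76 to 2.26, unadjusted p = 0.0019, adjusted p = 0.356). On the recovered reads DESeq2 gave 1.58 (SE 0.337, adjusted p = 0.000704), while edgeR gave an adjusted p of 0.365. The exact permutation test gave p = 0.1. With ketamine mice 3 and 5 left out, and so ketamine mouse 9 alone against the saline mice, the log2 fold change was 0.84. Without ketamine mouse 9 it was 1.85. Centred for length it was 1.51 (limma, adjusted p = 0.341).

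The order of Rasgrp2 over the ketamine mice, with mouse 3 highest and mouse 9 lowest, was also that of striatal markers. Drd1, the dopamine receptor of striatal projection neurons of the direct pathway, had 237, 215 and 184 normalized counts in the saline mice and 2631, 1237 and 116 in ketamine mice 3, 5 and 9. Drd2, its counterpart in the indirect pathway, had 27.8, 22.2 and 221 in the saline mice, against 1609, 618 and 25.4 in the ketamine mice. Ppp1r1b, which encodes the phosphatase regulator DARPP-32, had 2133, 1769 and 1996 in the saline mice, against 12441, 5942 and 1851 in the ketamine mice. Mouse 9 was below every saline mouse for Drd1 and for the summed list. Other striatal markers were above every saline mouse in mouse 9, as Rasgrp2 was, and 6 of the 24 were higher in every ketamine mouse, namely Penk, Tac1, Syndig1l, Adora2a, Gpr6 and Strip2, which were named after their values were seen. Tac1, which encodes the substance P precursor, stood at 644 in ketamine mouse 9, and its highest saline value was 377. Of the whole list, Six3 and Isl1 were at 0 in saline mice 1 and 6, and Six3 was at 0 in ketamine mouse 9. The 8 markers of olfactory bulb summed to 312, 398 and 981 in saline mice 1, 6 and 10, against 2679, 1795 and 12498 in ketamine mice 3, 5 and 9, with 6 of 8 higher in every ketamine mouse. The part of either list in the Rasgrp2 difference was not tested.

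Platelets, another known source of Rasgrp2, were represented by 6 marker genes, of which 3 passed the filter on low counts. Their sum lay between 427 and 512 normalized counts in the saline mice and between 448 and 636 in the ketamine mice, so the groups overlapped. Gp1bb, named after its values were seen, held most of that sum in every mouse. It lay between 350 and 426 in the saline mice and between 352 and 517 in the ketamine mice. The sum thus says little of the other platelet markers. Gp6, a collagen receptor of platelets, was at 0 in 5 of the 6 mice. Itga2b, named after its values were seen, as Gp6, Six3 and Isl1 were, was the 1 platelet marker higher in every ketamine mouse, at up to 70.5 against at most 57.9. Of the other markers, those of endothelial cells summed to between 6695 and 8058 in the saline mice and between 6726 and 7309.5 in the ketamine mice. Those of microglia summed to between 7956 and 9403 in the former and between 8153 and 9135 in the latter. The 7 oligodendrocyte markers were at 57291, 44999.8 and 386628 in saline mice 1, 6 and 10, and between 107191 and 164148 in the ketamine mice. Saline mouse 10 stood far above the others there. It was also the saline mouse with the highest Rasgrp2, Rasgrp3, Map3k1 and Map2k2, and with the lowest Rasgrp1, Braf and Map2k1. Its sum of olfactory bulb markers was the highest of the saline mice, and its sum of cortical excitatory markers the lowest. Without saline mouse 10 the log2 fold changes were 1.68 for Rasgrp2 and 1.58 for Map3k1. Astrocyte markers summed to between 97522 and 117147 in the saline mice and between 78903 and 122684 in the ketamine mice. Choroid plexus markers summed to between 126 and 3197 in the former and between 251 and 845 in the latter. In each of these 2 lists 1 gene was higher in every ketamine mouse and 0 were lower. Neither sum thus speaks for each gene of its list.

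Rasgrp3 (ENSMUSG00000071042), a RasGRP known from B cells and vessels, lies on the plus strand of mm9 at chr17:75835245-75928383. It had 381, 309 and 601 normalized counts in the saline mice, against 513, 423 and 287 in the ketamine mice. The groups overlapped, and the highest value was in saline mouse 10. The log2 fold change was −0.06 (limma, SE 0.305, 95% interval −0.78 to 0.66, adjusted p = 0.999), so that a change of up to 0.66 in one direction and 0.78 in the other lay within the interval. The sign depended on single mice, with 0.21 without saline mouse 10 and 0.17 without ketamine mouse 9.

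**Figure D1:**
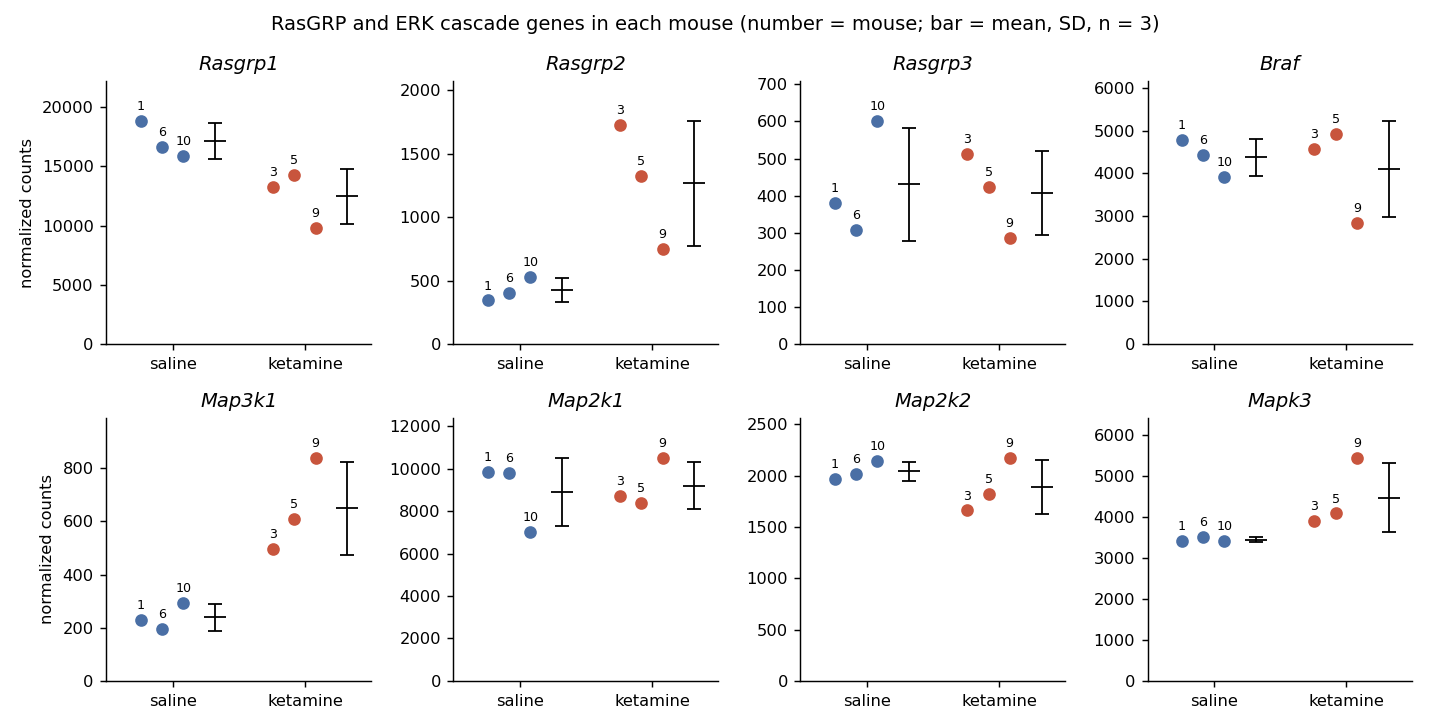
Normalized counts of the 8 genes (y axis, linear, from 0) in 3 saline mice and 3 ketamine mice (points, labelled with the mouse number), with bars for the mean and SD. Rasgrp2, Map3k1 and Mapk3 show all ketamine points above all saline points, Rasgrp1 shows them below, and the other 4 genes overlap.

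Since Rasgrp1 was lower and Rasgrp2 higher in every ketamine mouse, the mix of the 3 RasGRP genes was compared as well. Levels of different genes are compared per kb of transcript, using the transcript with the longest coding sequence. On that scale Rasgrp1 made up 93.9%, 92.9% and 89.4% of the summed level of the 3 genes in saline mice 1, 6 and 10, against 74.7%, 80.3% and 82.9% in ketamine mice 3, 5 and 9. Rasgrp2 made up 3.92%, 5.15% and 6.78% in the saline mice, against 22.1%, 17.0% and 14.4% in the ketamine mice. Rasgrp3 took between 1.94% and 3.79% in the saline mice and between 2.67% and 3.24% in the ketamine mice. Among these 3 genes Rasgrp1 thus had the largest share in every mouse. The groups did not overlap in the shares of Rasgrp1 and Rasgrp2, which largely follows from the opposite differences of the 2 genes. The size of the Rasgrp2 share depends on the length used, since its transcript has 2296 bases and its annotated exons together 12384. With all exons the share was between 0.804% and 1.42% in the saline mice and between 3.24% and 5.33% in the ketamine mice.

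A ratio of 2 genes within a library does not depend on how libraries are scaled. The log2 ratio of the normalized counts of Rasgrp2 to Rasgrp1 was −5.34 ± 0.43 in the saline mice and −3.36 ± 0.39 in the ketamine mice (mean ± SD, n = 3). The difference of 1.98 amounts to 3.95-fold (exact permutation test, two-sided, p = 0.1, or 0.5 adjusted over the 5 ratios computed). The groups did not overlap, which was fixed once Rasgrp1 was lower and Rasgrp2 higher in every ketamine mouse. The p-value of this ratio therefore adds nothing to those of the 2 genes. The difference was 1.63 without ketamine mice 3 and 5, which leaves a lone ketamine mouse. For Rasgrp3 to Rasgrp1 the groups overlapped, with a difference of 0.41 (exact permutation test, p = 0.3, adjusted p = 0.5).

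How far reads can tell the 3 RasGRP genes apart was checked on their sequences. The coding sequences share 66.5% (Rasgrp1 and Rasgrp2), 66.8% (Rasgrp1 and Rasgrp3) and 63.2% (Rasgrp2 and Rasgrp3) of aligned bases. The longest stretch that Rasgrp1 and Rasgrp2 have in common is shown to give a sense of this, and has 23 bases.
Rasgrp1 and Rasgrp2: cagaacttcaacacgctgatggc
Over 100 bases, the length of a read, none of the windows searched in the 3 genes occurs in another protein-coding gene. For Rasgrp2 the search held 4756 windows, against 12384 annotated exon bases, so part of its exons was not covered. Rasgrp2 shares 265 exon bases with Gm14965 on the opposite strand, which averaged 2.47 normalized counts.

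At the Raf tier, Braf (ENSMUSG00000002413), which phosphorylates both MEK kinases, lies on the minus strand of mm9 at chr6:39553236-39675462. It had 4787, 4423 and 3917 normalized counts in the saline mice, against 4568, 4915 and 2831 in the ketamine mice. Ketamine mouse 9 was the lowest of all 6 mice and ketamine mouse 5 the highest. The log2 fold change was −0.13 (limma, SE 0.224, 95% interval −0.65 to 0.40, adjusted p = 0.999), and 0.12 without ketamine mouse 9. The transcript of Braf has 9728 bases, the longest among the 8 genes, in the range where mouse 9 was lowest. Centred for length, mouse 9 had the highest Braf level of the 6 mice, and the log2 fold change was −0.04 with an SE of 0.0845 (limma, adjusted p = 0.952). Braf shares 146 exon bases with Ndufb2 on the opposite strand, which averaged 1445 normalized counts. Of its 9976 windows of 100 bases, 47 occur in another protein-coding gene. Which gene holds them was not recorded, so they may be the stretch shared with Ndufb2 counted again.

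Map3k1 (ENSMUSG00000021754) lies on the minus strand of mm9 at chr13:112536636-112599201. It had 228, 195 and 293 normalized counts in the saline mice, against 498, 611 and 839 in ketamine mice 3, 5 and 9. The lowest ketamine mouse was well above the highest saline mouse, and mouse 9 was the highest. The fold of the means was 2.72, and the log2 fold change was 1.43 (limma, SE 0.242, 95% interval 0.86 to 1.996, unadjusted p = 0.000536, adjusted p = 0.247). This was the smallest p among the 8 genes and rank 35 of the 16127 genes tested. DESeq2 gave 1.45 (SE 0.28, adjusted p = 8.56e-05), and edgeR an adjusted p of 0.275.

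For Map3k1 the order of the ketamine mice was the reverse of that for Rasgrp2. Mouse 9, which had the lowest sum of striatal markers, had the highest Map3k1. The log2 fold change was 1.83 without ketamine mice 3 and 5, which leaves mouse 9 alone, and 1.23 without ketamine mouse 9. Olfactory bulb markers, in contrast, were highest in mouse 9, and their part in the Map3k1 difference was not tested. The transcript has 6978 bases, a length at which mouse 9 was low, and centred for length the log2 fold change was 1.503 (limma, adjusted p = 0.392).

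**Figure D2:**
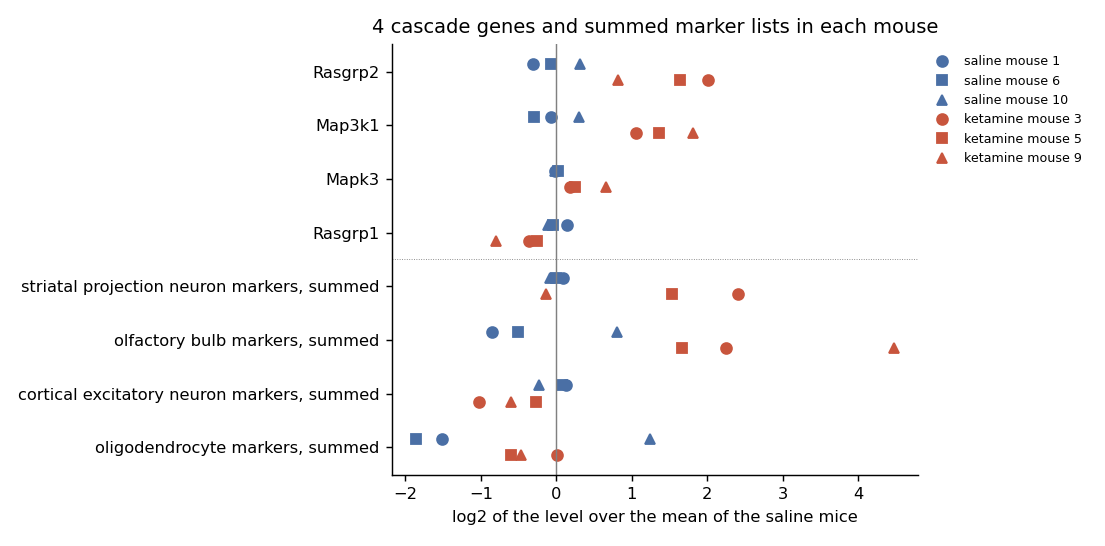
Level in each mouse as log2 of its ratio to the saline mean (x axis), for 4 genes of the cascade and for 4 summed lists of cell type markers (y axis), with 1 symbol per mouse and colour for treatment. Rasgrp2 and the striatal list are highest in ketamine mouse 3, whereas Map3k1, Mapk3 and the olfactory bulb list are highest in ketamine mouse 9.

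At the MEK tier neither kinase differed between the groups beyond the spread of the mice. Map2k1 (ENSMUSG00000004936; minus strand of mm9, chr9:64033577-64101438) had 9847, 9803 and 7033 normalized counts in the saline mice, against 8730.5, 8392 and 10491 in the ketamine mice. Saline mouse 10 was the lowest and ketamine mouse 9 the highest of the 6. Its log2 fold change was 0.06 (limma, SE 0.182, 95% interval −0.37 to 0.49, adjusted p = 0.999), and −0.10 without saline mouse 10. Map2k2 (ENSMUSG00000035027; plus strand of mm9, chr10:80568660-80587442) had 1966, 2021 and 2145 in the saline mice, against 1663, 1826 and 2175 in the ketamine mice. The groups overlapped through ketamine mouse 9, which was the highest of the 6. Its log2 fold change was −0.12 (limma, SE 0.139, 95% interval −0.45 to 0.20, adjusted p = 0.999). Neither interval reaches the log2 fold changes of Rasgrp2 or Map3k1.

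The ratio of Map2k1 to Map2k2 was similar in 5 of the 6 mice. In counts it was 5.01, 4.85 and 3.28 in saline mice 1, 6 and 10, against 5.25, 4.60 and 4.82 in the ketamine mice, so saline mouse 10 stood apart. The difference of the log2 ratios was 0.18 (exact permutation test, p = 0.7, adjusted p = 0.7). The MEK genes are closer paralogs than the RasGRP genes, with 78.4% of aligned coding bases shared. Their longest common run is printed because it is more than 2 times as long as that of any RasGRP pair, at 56 bases, though still shorter than a read.
Map2k1 and Map2k2: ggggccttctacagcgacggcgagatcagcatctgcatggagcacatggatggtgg

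Mapk3 (ENSMUSG00000063065), the kinase ERK1, lies on the plus strand of mm9 at chr7:133903115-133909333. Its saline mice were close together, at 3409, 3514 and 3419.6 normalized counts, and the ketamine mice had 3895, 4086 and 5441. The groups did not overlap, and ketamine mouse 9 stood above the other ketamine mice. The mean was 3448 ± 57.7 in the saline mice and 4474 ± 843 in the ketamine mice (mean ± SD, n = 3), a fold of 1.30. The log2 fold change was 0.36 (limma, SE 0.156, 95% interval −0.01 to 0.73, unadjusted p = 0.0537, adjusted p = 0.865), and DESeq2 gave 0.38 (adjusted p = 0.666). Without ketamine mouse 9 it was 0.21. The transcript has 1800 bases, and mouse 9 was high in transcripts under 2 kb. Centred for length the log2 fold change was 0.33 with an SE of 0.0905 (limma, unadjusted p = 0.00829, adjusted p = 0.408), the groups did not overlap, and mouse 9 was still the highest. The summed olfactory bulb markers were also highest in mouse 9, and their part in the Mapk3 difference was not tested.

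**Figure D3:**
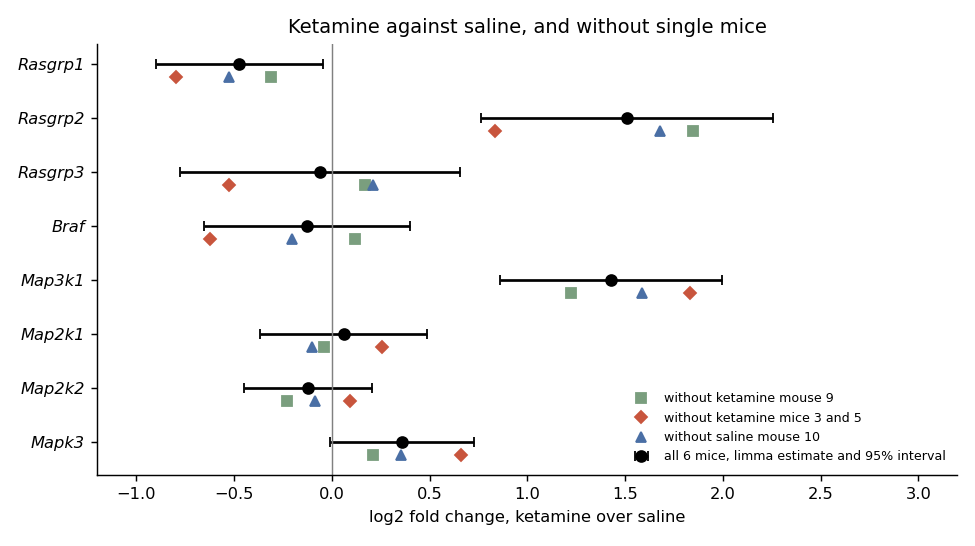
Log2 fold change of ketamine over saline (x axis) for the 8 genes (y axis), as the limma estimate over 6 mice with its 95% interval (black) and as the estimates without saline mouse 10, without ketamine mouse 9, and without ketamine mice 3 and 5. Rasgrp1, Rasgrp2, Map3k1 and Mapk3 keep their sign in all of these, while Rasgrp3, Braf, Map2k1 and Map2k2 change sign in at least 1.

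Along the cascade, levels per kb of transcript spanned a wide range. In saline mice they were 3651 ± 662 for Map2k1, 3273 ± 289 for Rasgrp1, 1915 ± 32.1 for Mapk3, and 449.8 ± 44.9 for Braf (SD, n = 3). Rasgrp2 stood at 186 ± 41.0, Rasgrp3 at 92.3 ± 32.6 and Map3k1, the lowest, at 34.2 ± 7.16. Map2k2, at 850 ± 38.1, lay between Mapk3 and Braf. The values of neighbouring genes in this order did not overlap between saline mice, except for Map2k1 and Rasgrp1.

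In ketamine mice the order was less clear cut. Map2k1 remained the highest at 3778 ± 463 per kb, followed by Mapk3 at 2486 ± 468 and Rasgrp1 at 2382 ± 448, which overlapped. Rasgrp2, at 552 ± 214, overlapped with both Map2k2, at 785 ± 109, and Braf, at 422 ± 115, and Map3k1, at 93.1 ± 24.9, with Rasgrp3, at 87.5 ± 24.4. These orders depend on the gene model. With all annotated exons as the length, Rasgrp1, at 3057 per kb, stood above Map2k1, at 2623, in the saline mice, though the 2 overlapped. In the ketamine mice Map2k1 was then at 2714, Rasgrp1 at 2225 and Mapk3 at 2068, and each overlapped with the next. Rasgrp2 was at 34.4 in the saline mice and below Rasgrp3, at 87.4.

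**Figure D4:**
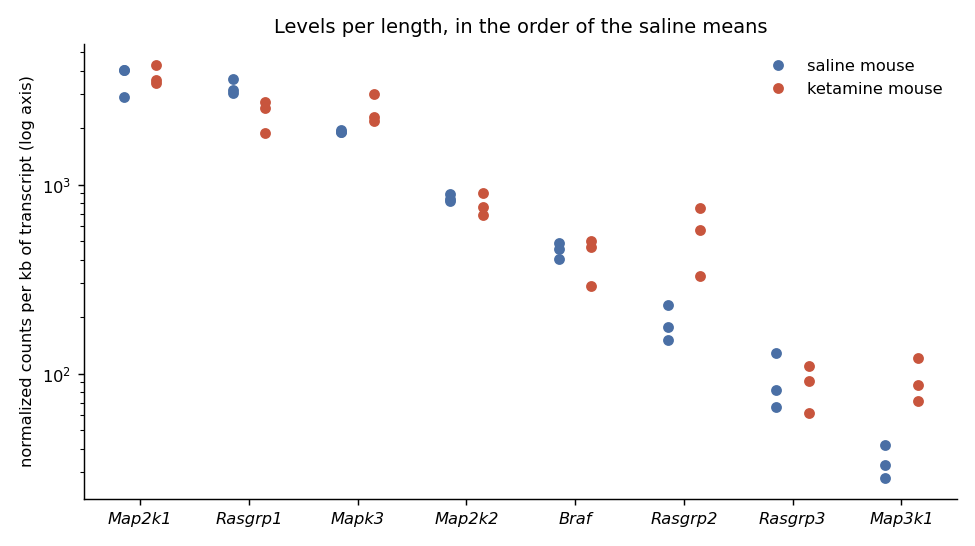
Normalized counts per kb of transcript (y axis, log scale) for the 8 genes in the order of their saline means (x axis), with 1 point per mouse. Rasgrp2 lies below Braf in all saline mice. In ketamine mice 3 and 5 it lies above all Braf points, and in ketamine mouse 9 among those of the ketamine mice. Map3k1 is the lowest gene in the saline mice.

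The rest of the pathway was covered by 72 further genes in 7 lists, all of which were tested. At an adjusted p under 0.05, limma, edgeR and DESeq2 each called 0 of the 72. Of all genes, DESeq2 called 1.13%, and limma and edgeR called 0, so the count in the 72 is close to these shares. At an unadjusted p under 0.05 limma had 2 higher and 1 lower, where 3.44% and 2.37% of all genes were. By edgeR there were 3 of the 72 at that threshold, against 1007 of the 16127 genes tested. Of the 72, 26 had a positive and 46 a negative log2 fold change, with a median of −0.05, against 47% positive and a median of −0.01 over all genes tested. Among the 8 genes of the cascade, 4 were positive and 4 negative, with a median of −0.0002. Of the 72, 3 were higher in every ketamine mouse (Rasa1, Rasa2 and Rps6ka6, the first of which was named after its values were seen) and 0 were lower in every ketamine mouse, against 5.69% and 4.66% of all genes. Rasgrp2 and Map3k1 had larger log2 fold changes than any of the 72.

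The other exchange factors and adaptors that act on Ras, such as Sos1 and Grb2, numbered 11 and had a median of −0.05 on the log2 scale. The smallest p in that list was for Rasgrf2, a calcium-dependent exchange factor, at −0.42 (limma, unadjusted p = 0.218). The 8 Ras and Rap GTPases themselves had a median of −0.02, led by Mras at −0.28 (limma, unadjusted p = 0.179). Neither list had a gene whose groups did not overlap. The 9 GTPase-activating proteins, which switch Ras or Rap off, had a median of −0.16. Among them Rasa2 had 1084, 1036 and 898 normalized counts in the saline mice, against 1171, 1405 and 1511 in the ketamine mice. It was higher in every ketamine mouse, with a log2 fold change of 0.43 (limma, unadjusted p = 0.0223, adjusted p = 0.732).

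Other Raf and MAP3 kinases with their scaffolds had a median of 0.07 over 12 genes, with Araf at 0.16 (limma, unadjusted p = 0.263). The 8 other MAP2 and MAP kinases all had a negative log2 fold change, with a median of −0.17 and Mapk10, a JNK kinase of neurons, at −0.47 (limma, unadjusted p = 0.0621), though none of them passed the test. The 10 ERK substrates had a median of 0.02. Rps6ka6, a ribosomal S6 kinase, had 114, 123 and 127 normalized counts in the saline mice, against 354, 173 and 148 in the ketamine mice. Its log2 fold change was 0.78 (limma, unadjusted p = 0.048, adjusted p = 0.856), with ketamine mouse 3 far above the others.

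The genes that make or remove diacylglycerol, a lipid that recruits some RasGRP proteins, had a median of −0.15 over 14 genes, of which 10 were negative. The list joins genes with opposite effects on this lipid, so its median and signs give no direction for the lipid. Dgkz, a diacylglycerol kinase that removes this lipid, had 21172, 20746 and 14821 normalized counts in the saline mice, against 9943, 15888 and 11494 in the ketamine mice. The groups overlapped, since ketamine mouse 5 was above saline mouse 10, and the log2 fold change was −0.61 (limma, unadjusted p = 0.031, adjusted p = 0.788).

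**Figure D5:**
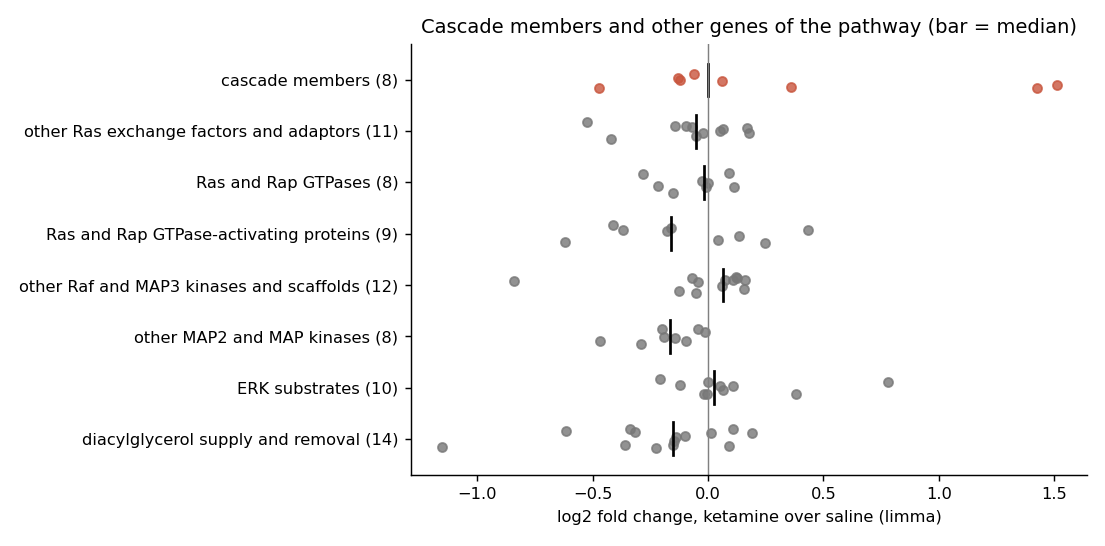
Log2 fold change of ketamine over saline by limma (x axis) for the 8 genes of the cascade and the 72 further genes in 7 lists (y axis, number of genes in brackets), with 1 point per gene and a bar at the median. List medians lie between −0.17 and 0.07, and Rasgrp2 and Map3k1, at 1.51 and 1.43, lie to the right of all other genes.

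To describe the company Rasgrp2 and Mapk3 keep, Pearson's r of log2 values over the 6 mice was computed against the other 16126 genes tested. The values are a description over 6 mice that share their 2 groups. Those most like Rasgrp2 were Zfp516 (r = 0.994), Zmat1 (0.993), Zfp467 (0.992), Cngb1 (0.992) and Rsbn1 (0.991). Cngb1, a subunit of a cyclic nucleotide-gated channel, had 2.87, 4.83 and 8.79 normalized counts in the saline mice, against 53.8, 31.99 and 10.9 in ketamine mice 3, 5 and 9, with the same order of mice as Rasgrp2. The genes most like Mapk3 were Gpsm1 (r = 0.991), Foxd3 (0.990), Kank3 (0.988), Prss53 (0.987) and Pcbp3 (0.984). Gpsm1, a regulator of G protein signalling, had 1256, 1281 and 1059 in the saline mice, against 1765, 1797 and 4217 in the ketamine mice. All 5 genes were highest in ketamine mouse 9, as Mapk3 was. Foxd3 had no read in any saline mouse, 1.96 in ketamine mouse 3, 1.88 in ketamine mouse 5 and 71.6 in ketamine mouse 9.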

How the data were processed

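Total RNA of the PLc from 6 mice was sequenced as 100 base paired-end reads. The authors aligned reads to mm9 with TopHat2 (2.0.11), counted them per gene with HTSeq and used DESeq2. The deposited unit is a signal, the gene count after the authors scaled each library by its size factor. The annotation and strand setting are not given in the sources used here, so a gene may hold reads of a partner on the other strand. In every library 100.0% of values came out as whole reads, within 0.011 normalized counts, and these reads numbered 26273436 to 32643726 per library. Depth per gene is given by its normalized counts.

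Log2(normalized count + 1) was compared with limma 3.58.1 (R 4.3.3, trend in the prior variance) in genes with a mean of at least 10, two-sided, with Benjamini-Hochberg adjustment over all genes tested. A fold change on this scale understates that of low genes. Alternatives were edgeR 4.0.16 and DESeq2 1.42.0 on recovered reads, pseudocounts of 0.1 and 5, no filter or one of 100, other scalings, no trend, and mice left out. Centring for transcript length (14800 genes with a length) was added after seeing the data. Lengths and coordinates are from GENCODE M1. Condition and mouse number came from the sample labels. The genes named were the 8 genes, the gene with the smallest p in each pathway list, the 5 genes most like Rasgrp2 and Mapk3, and 3 striatal markers, with other genes marked where they stand outside this rule. The genes and lists were chosen with earlier results of these data known. P-values measure the spread between these mice. Of the 5 ratios computed, 3 are given, and some items are not reported here.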

Additional observations from a re-analysis of the deposited data

How the results depend on the processing

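No paired analysis was possible because the mouse numbers differ between the groups. Of 200 alternatives run over the fold changes, ratios and counts of genes called, 188 were unchanged. For fold changes this meant the same direction and side of the threshold, for ratios the same direction, and for counts the same count. DESeq2 on recovered reads moved Rasgrp2 (1.58) and Map3k1 (1.45) past the threshold and called 182 genes in all, against 0 by limma, and limma called 1 gene without ketamine mouse 5 and 1 without ketamine mouse 9. The cause was not tested. The sign reversed for Rasgrp3 without saline mouse 10 (0.21) or ketamine mouse 9 (0.17), for Braf without ketamine mouse 9 (0.12), for Map2k1 without saline mouse 10 (−0.10) or ketamine mouse 9 (−0.04), and for Map2k2 without ketamine mice 3 and 5 (0.0904). It also reversed for the ratio of Map2k1 to Map2k2 without saline mouse 10 (−0.014). With 1 mouse left out in turn, the log2 fold change ranged from −0.58 to −0.31 for Rasgrp1, 1.25 to 1.85 for Rasgrp2, −0.27 to 0.21 for Rasgrp3, −0.28 to 0.12 for Braf, 1.23 to 1.60 for Map3k1, −0.10 to 0.14 for Map2k1, −0.23 to −0.04 for Map2k2 and 0.21 to 0.45 for Mapk3. Log2 ratios ranged from 1.77 to 2.20 for Rasgrp2 to Rasgrp1, 0.22 to 0.73 for Rasgrp3 to Rasgrp1 and −0.01 to 0.29 for Map2k1 to Map2k2. Leaving out ketamine mice 3 and 5 leaves a lone ketamine mouse, which is assumed to vary like the saline mice. Permutation tests of 3 mice against 3 cannot pass 0.05.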

Other observations

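Among the pathway genes, 3 were far lower in ketamine mouse 9 than in the other 5 mice, and they were chosen after their values were seen. Ksr2, a scaffold for the Raf and MEK kinases, had 26.3 normalized counts in ketamine mouse 9, against 506 and 538 in ketamine mice 3 and 5, and at least 229.5 in each saline mouse. Dgkh, a diacylglycerol kinase, had 46.2 in mouse 9, against 778 and 927 in the other ketamine mice, and at least 550.2 in each saline mouse. Shc3, a neuronal adaptor between receptors and Grb2, had 149 in mouse 9, against 839.9 and 950.2 in the other ketamine mice, and at least 499.7 in each saline mouse.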
